A study of Mus musculus with 6 samples.

Results

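β-Oxidation shortens fatty acids by removing acetyl-CoA units, and it runs in both mitochondria and peroxisomes. Each round in the mitochondrion passes through an acyl-CoA dehydrogenase, an enoyl-CoA hydratase, a hydroxyacyl-CoA dehydrogenase, and a thiolase, and the electrons taken up by the dehydrogenases leave through the electron transfer flavoprotein (ETF). Peroxisomes use acyl-CoA oxidases and bifunctional enzymes instead, and they take very long chain, branched-chain, and dicarboxylic acids. In brown adipose tissue (BAT), mitochondrial oxidation supplies the electrons for heat production, and the peroxisomal enzymes are abundant as well.

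The genes described here are 38 genes of these routes, chosen by their known function and place in the cell, of 20630 gene symbols with a value on the arrays. Of these, 18 act in mitochondria, 15 act in peroxisomes, and 5 are found in several places or in the cytosol (*Acad11*, *Eci2*, *Ech1*, *Amacr*, and *Acot1*). A total of 37 could be tested, among 19007 genes tested. *Acot4*, a peroxisomal thioesterase, lay above background on control 1 and *ob/ob* 3 alone and was left out. RNA came from interscapular BAT (iBAT) of C57BL/6 male mice, 16 weeks old. The 3 samples of one group were labelled control, with no genotype stated, and the 3 of the other group came from *ob/ob* mice, whose mutation removes working leptin from the whole animal and makes it obese. The labels name no treatment for either group. Each sample was read on 1 Agilent single-color array. The labels do not say whether the 3 samples of a group were separate animals or pools, so p values measure the spread between these samples, which may be technical.

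Signals are given on the log2 scale after quantile normalization between arrays, and a change is the mean of *ob/ob* minus the mean of control. Signals of different genes come from different probes and are not compared. Control 3 and *ob/ob* 3 stood apart from their groups. Over the probes tested, which are not independent replicates, the Spearman correlation of control 1 with control 2 was 0.964 and that of *ob/ob* 1 with *ob/ob* 2 was 0.967, whereas control 3 correlated at 0.642 with control 1 and at 0.915 with *ob/ob* 1. Similarly, *ob/ob* 3 correlated at 0.573 with *ob/ob* 1 and at 0.858 with control 1. These arrays were kept under their labels. Transcript of *Lep*, the mutated leptin gene, read 5.74, 4.57, and 5.30 in controls and 6.68, 5.83, and 9.33 in *ob/ob* mice. By this gene both arrays lay with the group of their label, with a small margin between control 1 and *ob/ob* 2. The same separation, higher in *ob/ob* mice, was seen for 3.76% of all genes tested, so this gene does not settle the labels. Whether the samples behind both arrays were exchanged was not tested, and an exchange would alter the changes given here. Single-array values are therefore given for the genes the results turn on, and the main counts are given with and without both arrays. In tissue RNA, fewer cells of a type and less RNA per cell cannot be told apart.

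No β-oxidation gene passed an adjusted p of 0.05 (limma, Benjamini-Hochberg over all probes), as for all genes tested (0.0%), and every adjusted p of these genes was 0.99999. By its brightest probe, no member passed an unadjusted p of 0.05 either, compared with 3.71% of all genes tested (2.03% higher and 1.68% lower). Of the 37 genes, 16 had a higher and 21 a lower mean in *ob/ob* mice, a lower share of 56.8%, beside 57.1% of all genes. The median change was -0.15 for the 37 genes and -0.09 for all genes. Changes ran from -2.18 for *Etfb*, a subunit of ETF, to 1.80 for *Phyh*, the peroxisomal enzyme that starts the breakdown of phytanic acid. The change was larger than the pooled SD within groups for 8 of 37 genes (21.6%), beside 22.6% of all genes. The median pooled SD was 1.17 for the members and 0.70 for all genes, so that the 95% interval of a member's change reached 1.97 to each side at the median, with a range of 0.70 to 3.19. By this interval, which is not adjusted for the number of probes, changes of about that size or smaller were not told from 0 with 3 arrays per group. Larger changes failed the adjusted p as well, such as that of *Ppargc1b*, a gene outside the members (-3.75, adjusted p = 0.99999, limma). Without control 3 and *ob/ob* 3, 24 of 37 genes passed an adjusted p of 0.05, beside 48.9% of all genes, a choice of arrays made on these same data.

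**Figure D1:**
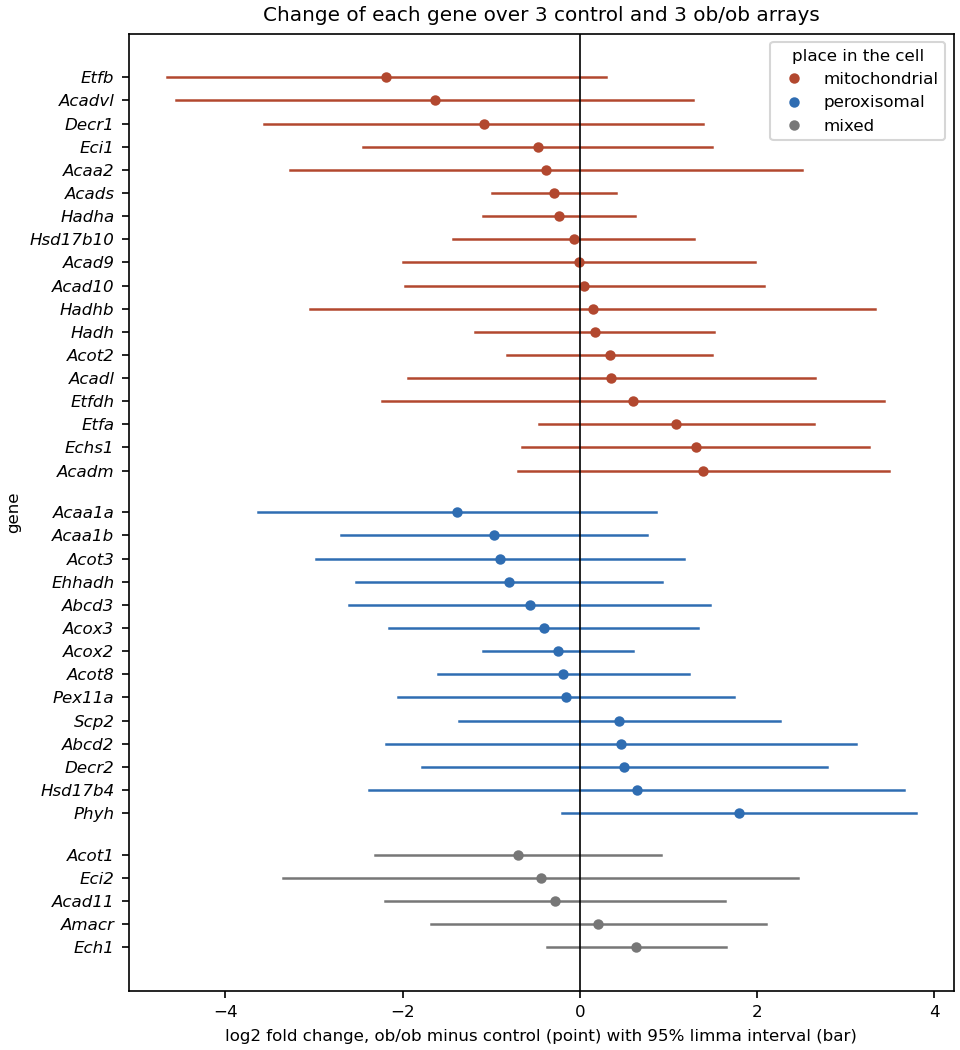
Change of the 37 genes tested, as the log2 difference of *ob/ob* minus control (points, x axis) with its 95% limma interval (bars) over 3 control and 3 *ob/ob* arrays, by gene (y axis) and by place in the cell, where mixed stands for several places or the cytosol. Every interval includes 0, and the points run from -2.18 for *Etfb* to 1.80 for *Phyh*.

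Among the acyl-CoA dehydrogenases, which open each mitochondrial round and differ by the chain length they prefer, the very long chain enzyme *Acadvl* had the lowest change. Control 1, 2, and 3 gave signals of 13.61, 12.67, and 9.52, and *ob/ob* 1, 2, and 3 gave 9.52, 9.46, and 11.91. Control 1 and control 2 lay above every *ob/ob* array, and control 3 lay at the level of *ob/ob* 1. The change was -1.64 ± 1.21 (SE, limma), with an exact permutation p of 0.20 (two-sided, where 3 arrays against 3 cannot go under 0.10). The medium-chain enzyme *Acadm* had the opposite sign. *Acadm* read 9.61, 9.44, and 6.97 in controls and 9.72, 9.29, and 11.19 in *ob/ob* mice, in the same order of arrays, which is kept throughout. Here control 1 and control 2 lay among the *ob/ob* arrays 1 and 2, and the difference of the means (1.40 ± 0.87, exact permutation p = 0.40) came from a low control 3 and a high *ob/ob* 3.

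The long-chain enzyme *Acadl* read 10.50, 10.07, and 7.33 in controls and 9.27, 8.94, and 10.76 in *ob/ob* mice, a change of 0.36 ± 0.95 (exact permutation p = 0.80). Control 3 lay below every *ob/ob* array, and the other controls lay among them. *Acads*, the short-chain enzyme, was the 1 member whose groups did not overlap, compared with 7.94% of all genes tested (3.76% higher and 4.19% lower). It read 5.68, 5.70, and 5.84 in controls and 5.40, 5.52, and 5.44 in *ob/ob* mice. All 3 *ob/ob* arrays lay below all 3 controls by a small margin, a change of -0.29 ± 0.29 (exact permutation p = 0.10, the smallest possible). *Acad9*, *Acad10*, and *Acad11* had changes of -0.00, 0.05, and -0.28.

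The trifunctional protein carries out the last steps of the round on long chains and is built from the products of *Hadha* and *Hadhb*. These genes lie side by side on chromosome 5, with starts 272 bases apart and head to head, so that their upstream stretches overlap. The shared stretch is shown because both subunits of 1 enzyme are read outward from it (RefSeq, GRCm38.p6, 228 bases, with no capitals because the searched letters described below were not in it).
*Hadha* and *Hadhb* (chr5:30155003-30155230, plus strand): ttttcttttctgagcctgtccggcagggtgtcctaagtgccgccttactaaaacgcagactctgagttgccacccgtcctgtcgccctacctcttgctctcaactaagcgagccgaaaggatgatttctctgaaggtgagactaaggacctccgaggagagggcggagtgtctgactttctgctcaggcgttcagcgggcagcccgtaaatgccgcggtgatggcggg
The probes of this pair spanned different ranges. *Hadhb* read 13.81, 12.65, and 9.80 in controls and 11.21, 11.06, and 14.43 in *ob/ob* mice. The highest and the lowest of the 6 arrays were *ob/ob* 3 and control 3, and the change of the means was 0.14 ± 1.32 (exact permutation p = 1.0). *Hadha* read 7.26, 6.99, and 6.44 in controls and 6.83, 6.46, and 6.70 in *ob/ob* mice, a range of less than 1 log2 unit, with a change of -0.24 ± 0.36 (exact permutation p = 0.50). Centred on its mean, the log2 difference of *Hadhb* minus *Hadha* was 1.167, 0.276, and -2.014 in controls and -1.003, -0.774, and 2.348 in *ob/ob* mice. The difference between groups was 0.38, with overlap (exact permutation p = 0.90, two-sided, adjusted over 2 pairs 0.90), and it turned to -1.61 without control 3 and *ob/ob* 3.

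*Echs1*, the hydratase for short chains, read 9.68, 8.88, and 6.92 in controls and 9.66, 9.03, and 10.72 in *ob/ob* mice. As for *Acadm*, controls 1 and 2 lay level with *ob/ob* 1 and 2, and the change was 1.31 ± 0.81 (exact permutation p = 0.30). *Hadh*, the dehydrogenase of medium and short chains, and *Hsd17b10*, which also acts on branched-chain intermediates, had changes of 0.17 and -0.07. The mitochondrial thiolase *Acaa2* had a change of -0.38. Of the auxiliary enzymes that handle unsaturated chains, *Decr1*, the mitochondrial dienoyl-CoA reductase, read 12.97, 12.27, and 9.48 in controls and 9.96, 9.75, and 11.76 in *ob/ob* mice. Control 1 and control 2 were its highest arrays, and the change was -1.09 ± 1.03 (exact permutation p = 0.40). The isomerases *Eci1* and *Eci2* had changes of -0.47 and -0.44, and *Ech1*, a dienoyl-CoA isomerase, had 0.64. *Acot2*, a mitochondrial thioesterase that frees fatty acids from CoA, read 4.61, 4.31, and 4.19 in controls and 4.26, 4.23, and 5.64 in *ob/ob* mice. It lay above background on 2 arrays of each group and was dim on all but *ob/ob* 3, with a change of 0.34 ± 0.48 (exact permutation p = 0.80).

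**Figure D2:**
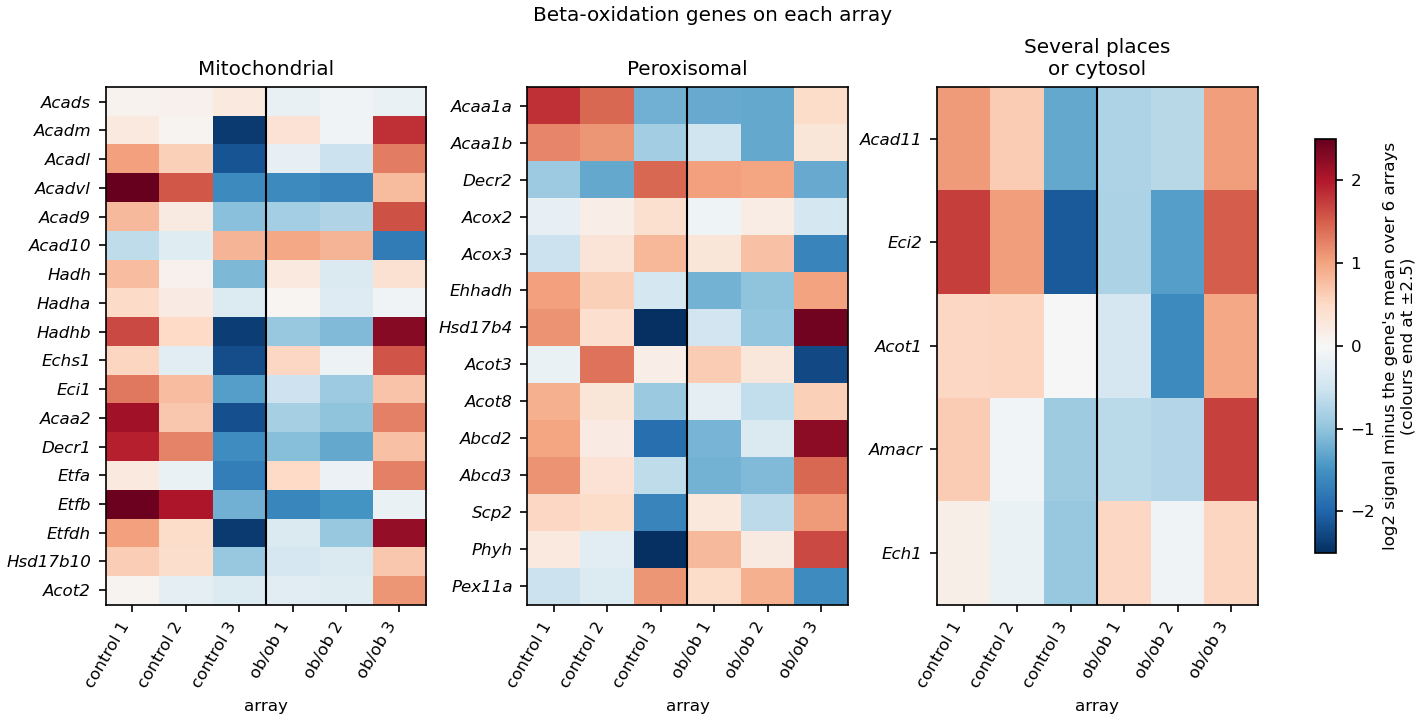
Log2 signal of each tested gene (y axis) on each of the 6 arrays (x axis), minus the gene's own mean over the arrays, in panels by place in the cell. Red marks arrays above the gene's mean and blue those below it, and most genes are blue on control 3 and red on *ob/ob* 3.

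The products of *Etfa* and *Etfb* form ETF, which collects electrons from all of the acyl-CoA dehydrogenases of the mitochondrion, and ETF dehydrogenase, encoded by *Etfdh*, hands them to ubiquinone. *Etfb* read 14.61, 14.19, and 10.97 in controls and 10.54, 10.67, and 12.00 in *ob/ob* mice. Control 1 and control 2 exceeded every *ob/ob* array, and control 3 lay between *ob/ob* 2 and *ob/ob* 3. With a change of -2.18 ± 1.03 (exact permutation p = 0.20), *Etfb* had the lowest change of all members. *Etfa* read 11.33, 10.93, and 9.36 in controls and 11.59, 10.95, and 12.35 in *ob/ob* mice, and its change was 1.09 ± 0.64 (exact permutation p = 0.20). A dimmer probe of *Etfa* read 7.11, 6.94, and 5.85 in controls and 8.09, 7.45, and 8.64 in *ob/ob* mice. Its groups did not overlap, and its change was 1.43 ± 0.50 (limma, unadjusted p = 0.029, adjusted p = 0.99999). Thus, both probes of *Etfa* had the sign opposite to that of *Etfb*. *Etfdh* read 11.32, 10.75, and 7.91 in controls and 9.94, 9.35, and 12.50 in *ob/ob* mice, a change of 0.60 ± 1.17 (exact permutation p = 0.70), with the lowest and the highest value on control 3 and *ob/ob* 3.

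Because control 3 and *ob/ob* 3 shift most of these genes together, the difference of the 2 ETF subunits was taken within each array. Centred on its mean, the log2 difference of *Etfb* minus *Etfa* was 2.20, 2.18, and 0.53 in controls and -2.13, -1.35, and -1.43 in *ob/ob* mice. All 3 controls lay above all 3 *ob/ob* arrays. The group means were 1.64 ± 0.96 and -1.64 ± 0.43 (SD, n = 3 each), a difference of -3.28, with an exact permutation p of 0.10 (two-sided, the smallest that this design allows) and 0.20 after adjustment over the 2 subunit pairs compared. The pairs were picked after their values were seen. The difference ran from -3.94 to -2.90 over the 10 alternatives tried, and within the scan that control 1, control 3, and *ob/ob* 1 share it was -3.50. These settings use the same arrays from which the pair was picked, and most only leave arrays out. They are therefore no check of the pick.

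In peroxisomes, the thiolases *Acaa1a* and *Acaa1b* close the round. They are near-identical copies, so a probe of one may bind RNA of the other. *Acaa1a* read 11.53, 11.15, and 8.51 in controls and 8.44, 8.42, and 10.17 in *ob/ob* mice. *Acaa1b* read 8.57, 8.45, and 6.47 in controls and 6.86, 6.07, and 7.66 in *ob/ob* mice. For both genes, controls 1 and 2 were the highest arrays and *ob/ob* 2 the lowest. Their changes were -1.38 ± 0.93 (exact permutation p = 0.20) and -0.97 ± 0.71 (exact permutation p = 0.30). The bifunctional enzymes catalyze the middle steps. *Ehhadh*, the L-bifunctional enzyme, read 5.88, 5.45, and 4.41 in controls and 3.67, 3.84, and 5.85 in *ob/ob* mice, and among the *ob/ob* arrays it lay above background on *ob/ob* 3 alone. Its change was -0.80 ± 0.71 (exact permutation p = 0.30), and -0.17 with normexp background correction. *Hsd17b4*, the D-bifunctional enzyme, read 10.10, 9.38, and 6.47 in controls and 8.49, 8.003, and 11.38 in *ob/ob* mice. The extremes were again control 3 and *ob/ob* 3, and the change was 0.64 ± 1.25 (exact permutation p = 0.80).

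*Phyh*, which carries out the α-oxidation step that branched phytanic acid needs before β-oxidation, had the highest change of all members. It read 11.09, 10.56, and 8.21 in controls and 11.67, 11.07, and 12.51 in *ob/ob* mice. *ob/ob* 1 and *ob/ob* 3 exceeded every control, and *ob/ob* 2 lay just under control 1. The change was 1.80 ± 0.83 (exact permutation p = 0.20). The other branched-chain genes were *Scp2*, which carries a thiolase for branched chains, and *Amacr*, a racemase, and their changes were 0.45 and 0.21. The peroxisomal dienoyl-CoA reductase *Decr2* read 6.44, 6.06, and 8.78 in controls and 8.37, 8.34, and 6.09 in *ob/ob* mice. Its order of arrays ran against that of most members, with control 3 highest and *ob/ob* 3 near the lowest, and its change was 0.51 ± 0.95 (exact permutation p = 0.90). *Acox2* and *Acox3*, oxidases of branched chains and bile acid precursors, had changes of -0.24 and -0.41.

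*Abcd3*, a transporter that brings acyl-CoAs into the peroxisome, read 9.99, 9.22, and 8.23 in controls and 7.68, 7.77, and 10.30 in *ob/ob* mice. *ob/ob* 1 and *ob/ob* 2 lay under every control and *ob/ob* 3 above every control, and the change was -0.56 ± 0.84 (exact permutation p = 0.60). Its relative *Abcd2* lay above background on 3 arrays (controls 1 and 2 and *ob/ob* 3) and had a change of 0.47. *Pex11a*, which acts in the division of peroxisomes, had a change of -0.15. The thioesterases *Acot1*, *Acot2*, *Acot3*, and *Acot4* are related genes on chromosome 12, where they follow each other with no other coding gene between them. *Acot1* and *Acot2* are near-identical copies, and a probe of one may bind RNA of the other. *Acot3* read 9.11, 10.62, and 9.43 in controls and 9.91, 9.55, and 7.02 in *ob/ob* mice, with *ob/ob* 3 alone under all controls and a change of -0.90 ± 0.86 (exact permutation p = 0.60). The untested *Acot4* read 4.55, 3.77, and 2.92 in controls and 2.18, 1.70, and 5.74 in *ob/ob* mice. Of these neighbors, *Acot1*, *Acot2*, and *Acot4* were highest on *ob/ob* 3 and *Acot3* on control 2. *Acot1* and *Acot8* had changes of -0.70 and -0.18.

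Most genes of both organelles shifted together from array to array. Centred on each gene's mean, the median of the 18 mitochondrial genes was 0.79, 0.33, and -1.47 in controls and -0.32, -0.45, and 0.95 in *ob/ob* mice, and that of the 14 peroxisomal genes was 0.70, 0.33, and -0.76 and -0.18, -0.49, and 0.53. For both organelles, control 3 was the lowest of all arrays and *ob/ob* 3 the highest of the *ob/ob* arrays. The medians of all genes tested stayed between -0.20 and 0.16 on every array. Control 3 was the lowest control and *ob/ob* 3 the highest *ob/ob* array for 15 of 18 mitochondrial and 9 of 14 peroxisomal genes, 29 of 37 members in all (78.4%), beside 34.5% of all genes. The reverse order was seen for 5 members, *Acad10*, *Acox2*, *Acox3*, *Decr2*, and *Pex11a* (13.5%, beside 46.7% of all genes).

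The median change was 0.02 for the mitochondrial genes, with 9 higher and 9 lower means, and -0.21 for the peroxisomal genes, with 5 higher and 9 lower means. These medians differed by 0.24. The difference of the 2 medians on single arrays varied by more than that, with 0.09, -0.00, and -0.71 in controls and -0.14, 0.04, and 0.42 in *ob/ob* mice (SD over the 6 arrays 0.37). Its sign turned without both arrays numbered 3 (-0.26) and within the shared scan (-0.18), and it rose to 0.70 without control 1. The data therefore gave no order between the organelles.

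**Figure D3:**
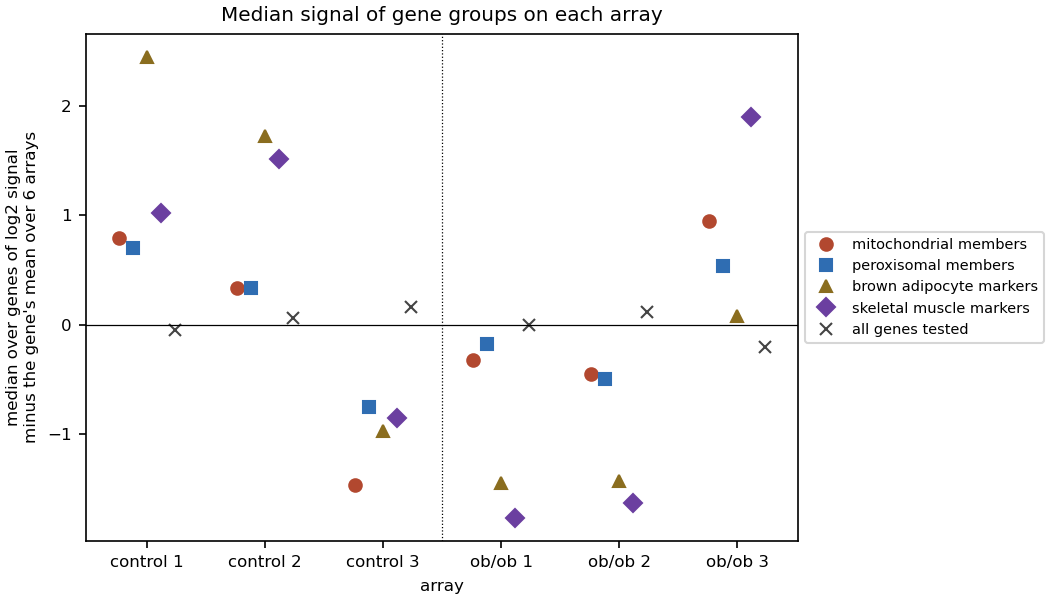
Median over genes of the log2 signal minus the gene's mean (y axis) on each array (x axis), for the mitochondrial and peroxisomal genes, the brown adipocyte and skeletal muscle markers, and all genes tested. The mitochondrial median is lowest on control 3 (-1.47) and highest on *ob/ob* 3 (0.95), while all genes stay between -0.20 and 0.16.

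Marker genes of the cell types that an iBAT sample can hold also varied between arrays. For the brown adipocyte markers, the same centred median was 2.45, 1.73, and -0.97 in controls and -1.45, -1.43, and 0.08 in *ob/ob* mice. Their mean was lower in *ob/ob* mice for 9 of 10 genes, beside 57.1% of all genes. Of these 9, *Dio2* (-0.16) and *Pank1* (-0.35) changed little, and the remaining marker, *Ebf2*, was higher (1.15). The summed signal of the 10 markers ran from 6425 to 101103 in controls and from 4093 to 12509 in *ob/ob* mice. *Ucp1*, the uncoupling protein that defines the brown adipocyte, was above background on all arrays, at 13.05, 11.72, and 9.48 in controls and 8.93, 9.12, and 10.03 in *ob/ob* mice. *Cidea* read 15.33, 14.58, and 11.16 and 9.89, 9.79, and 12.38. *Elovl3* read 9.20, 9.35, and 5.48 in controls and was not well above background on any *ob/ob* array. Its mean over the controls was at least 15.8-fold above the *ob/ob* mean, by the lowest signal above background on each *ob/ob* array. Control 3 lay well under the other controls and nearer to that bound (a mean of 4.02). The 12 skeletal muscle markers had medians of 1.02, 1.52, and -0.86 in controls and -1.77, -1.64, and 1.90 in *ob/ob* mice, with a summed signal of 5242 to 63868 in controls and 1057 to 139100 in *ob/ob* mice. Muscle is itself rich in β-oxidation enzymes. *Acta1*, a muscle actin, read 9.54, 9.64, and 7.56 and 6.44, 6.76, and 11.35, and *Ckm*, muscle creatine kinase, read 7.31, 7.68, and 5.71 and 5.56, 5.41, and 8.60. *Mylpf* was the 1 of 12 muscle markers with a higher mean in *ob/ob* mice (1.19 ± 0.44, limma, unadjusted p = 0.034, adjusted p = 0.99999). Its groups did not overlap, as for 3.76% of all genes that were higher. The medians of endothelial and fibroblast markers were likewise lowest on *ob/ob* 1 and *ob/ob* 2, at -1.47 for both arrays and at -1.67 and -1.66. The median of fibroblast markers was highest on *ob/ob* 3 (2.79). Of the 8 endothelial markers, *Pecam1* alone ran against this order, being highest on *ob/ob* 2 (12.58) and lowest on *ob/ob* 3 (9.80). Markers shared by brown and white adipocytes had medians of 1.099, 0.687, and -1.501 in controls and -0.70, -1.04, and 1.36 in *ob/ob* mice, and erythrocyte markers 1.17, 0.15, and -0.67 and -0.87, -1.11, and 1.71. The median of macrophage markers stayed between -0.41 and 0.22, that of white adipocyte markers between -0.33 and 0.27, and that of lymphocyte markers between -0.62 and 0.48. Single markers of these lists varied more and in opposite ways. Of the macrophage markers, *Ctss* read 6.15 on control 3 and 13.14 on *ob/ob* 3, and *Itgam* 13.82 on control 2 and 10.25 on *ob/ob* 3. Of the white adipocyte markers, *Lep* had a change of 2.07 and *Retn* of -1.98. Of the lymphocyte markers, *Ms4a1* had a change of 1.16 and *Cd8a* of -0.91. The part of these cell types in the values of the β-oxidation genes was not tested.

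Without control 3 and *ob/ob* 3, 21 of 37 members were lower (56.8%, beside 26.9% of all genes) and 3 were higher (beside 22.0%) at an adjusted p of 0.05 (limma, 2 arrays per group). Both arrays were left out because they stand apart in these same data, which removes most of the spread within groups, so these calls describe the 4 remaining arrays. In mitochondria, 10 of 18 genes were lower and 1 was higher, with a median of -1.05. In peroxisomes, 7 of 14 were lower and 2 were higher, with a median of -0.80, beside 0.06 for all genes. The lowest changes were those of *Etfb* (-3.90 ± 0.24, adjusted p = 3.55e-05, limma), *Acadvl* (-3.67), *Acaa1a* (-2.89), *Decr1* (-2.77), *Eci2* (-2.43), *Acaa2* (-2.34), and *Hadhb* (-2.13). *Decr2* (1.93), *Acad10* (1.38), and *Pex11a* (1.101) were the genes that were higher. The change had the opposite sign to that over all 6 arrays for 13 of 37 genes, among them *Abcd2* (-1.27), *Amacr* (-0.94), *Scp2* (-0.68), and *Hadh* (-0.51). In all, 13 genes did not pass, and *Acadm* (-0.02), *Echs1* (0.06), *Etfa* (0.14), and *Ech1* (0.22) were among those with the smallest changes. On these 4 arrays, the changes of *Etfa* and *Etfb* lay more than 3 log2 units apart, as did those of *Acadm* and *Acadvl*.

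Within the scan that held control 1, control 3, and *ob/ob* 1, the change of *ob/ob* 1 from the mean of both controls was -2.25 for *Etfb*, -2.05 for *Acadvl*, -1.57 for *Acaa1a*, 1.43 for *Acadm*, and 2.02 for *Phyh*. These signs were those over all 6 arrays, which include these 3. For 7 of the 37 members, the sign within this scan was opposite to that over all 6 arrays. The other scans held 1 array each and gave no value.

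**Figure D4:**
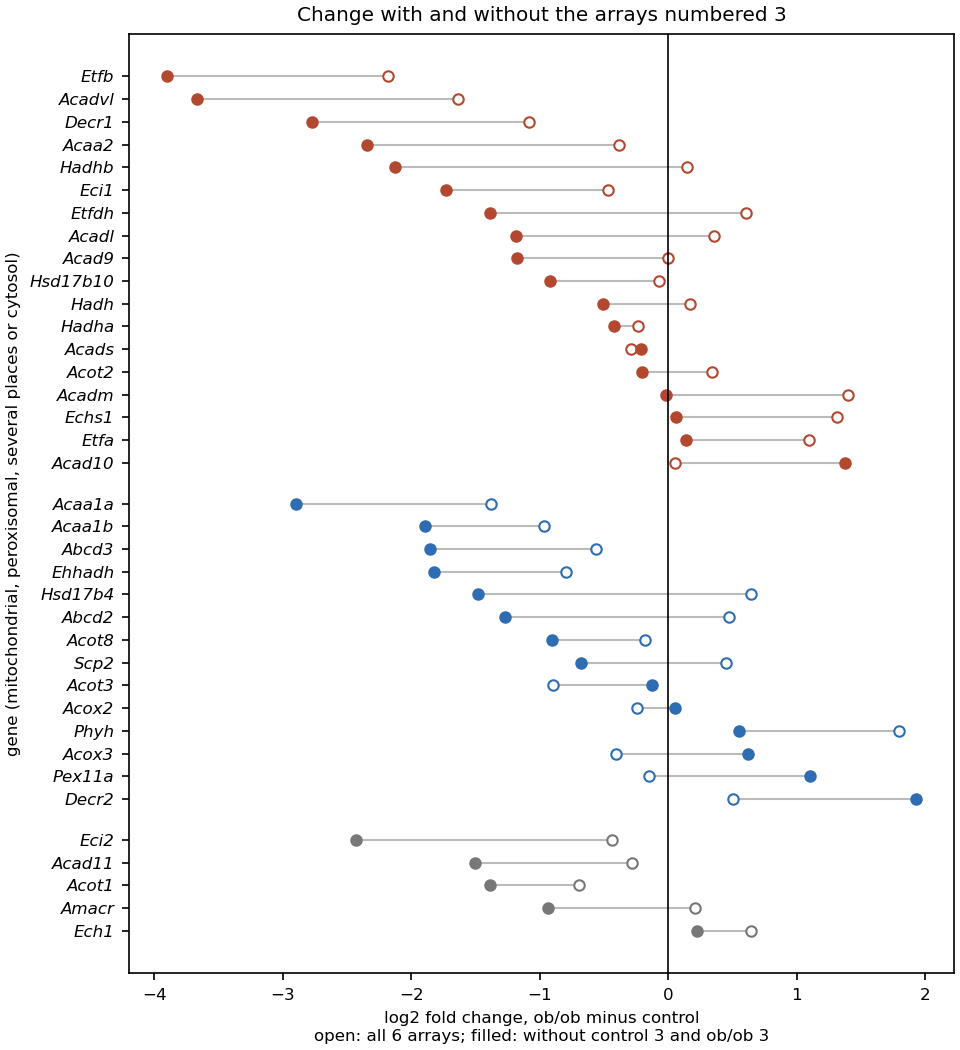
Log2 change, *ob/ob* minus control (x axis), of each gene (y axis) over all 6 arrays (open) and without control 3 and *ob/ob* 3 (filled), by place in the cell. *Etfb* moves from -2.18 to -3.90 and *Hadhb* from 0.14 to -2.13, whereas *Phyh* moves from 1.80 to 0.55.

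Since most of these genes shifted together between arrays, each gene was also read relative to the median of the members on the same array. This scale was chosen after the values were seen, and it asks which genes departed from the rest of the pathway. The groups then did not overlap for 8 of 37 members, beside 6.28% of all genes on this scale (1.88% higher and 4.39% lower). The scale is built from the members themselves, which narrows their spread more than that of other genes, so nothing is read from the difference in share. In relative terms, *Phyh* (1.80 ± 0.64, SE), *Acadm* (1.40 ± 0.63), *Echs1* (1.31 ± 0.62), and *Etfa* (1.09 ± 0.60) lay higher in all *ob/ob* arrays. *Etfb* (-2.18 ± 0.73), *Acaa1a* (-1.38 ± 0.66), *Acaa1b* (-0.97 ± 0.61), and *Ehhadh* (-0.80 ± 0.62) lay lower. *Ehhadh* passed the filter on dim probes through its 3 controls, and its values on *ob/ob* 1 and *ob/ob* 2 were not well above background, so its place among the 8 rests on dim readings. Of the higher genes 3 were mitochondrial and 1 peroxisomal, and of the lower genes 1 was mitochondrial and 3 peroxisomal. Every exact permutation p was 0.10, and no adjusted p over all probes passed 0.05 (limma, 0.0% of all genes).

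On this relative scale, *Etfb* read 1.67, 1.67, and -0.06 in controls and -1.27, -0.87, and -1.13 in *ob/ob* mice. Control 3 lay lowest among the controls and still above every *ob/ob* array. *Phyh* read -0.54, -0.65, and -1.51 in controls and 1.17, 0.84, and 0.68 in *ob/ob* mice, with a gap of more than 1 log2 unit between the groups. *Acadm* read -0.54, -0.29, and -1.27 in controls and 0.71, 0.54, and 0.85 in *ob/ob* mice. *Ehhadh* had the narrowest gap, with *ob/ob* 3 at 0.03 and control 2 at 0.25. With the authors' normalized values, all 8 genes still had no overlap. The same held with each array left out, but genes picked for having no overlap can hardly gain one when an array is dropped. Those settings are therefore no check of the pick. With scaling to the 75th percentile, *Acaa1a* overlapped (change -1.40) and the other 7 did not.

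**Figure D5:**
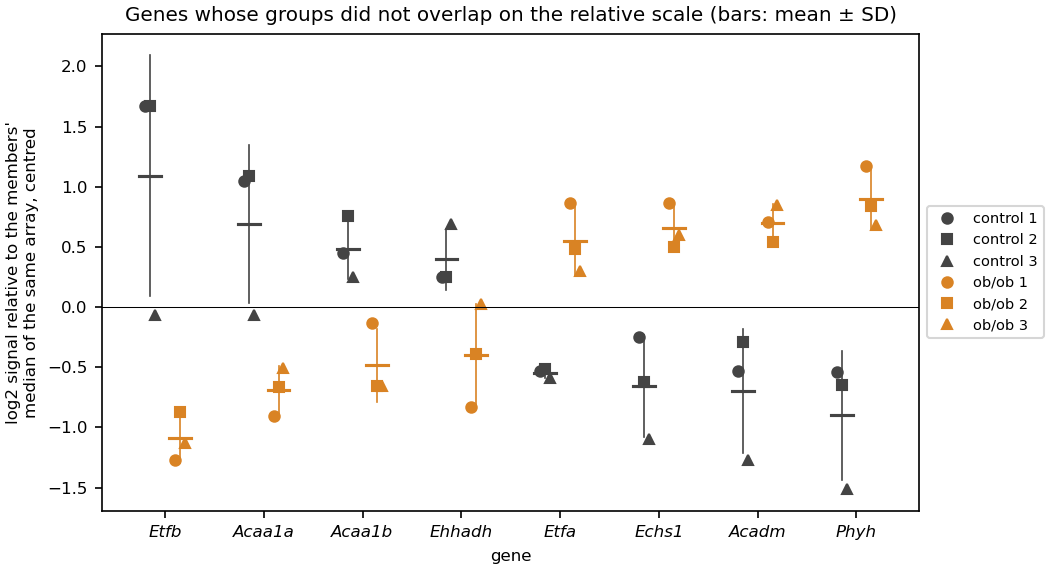
Log2 signal relative to the median of the members on the same array, centred on the gene's mean (y axis), for the 8 genes whose groups did not overlap on this scale (x axis), with 1 point per array and bars for the mean ± SD of the 3 arrays of a group. Among the controls, control 3 is nearest to the *ob/ob* arrays for *Etfb* (-0.06) and farthest from them for *Phyh* (-1.51).

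The sequence before the start of 4 of these genes is shown because they lay apart from the other members on this scale, *Etfb* and *Acaa1a* to lower and *Acadm* and *Phyh* to higher relative values (RefSeq, GRCm38.p6, 250 bases before the start, 5′ to 3′ on the gene's strand). Capitals mark a match to AGGTCA, the half-site that PPAR and other nuclear receptors bind, on either strand.
*Etfb* (chr7:43443822-43444071, plus strand): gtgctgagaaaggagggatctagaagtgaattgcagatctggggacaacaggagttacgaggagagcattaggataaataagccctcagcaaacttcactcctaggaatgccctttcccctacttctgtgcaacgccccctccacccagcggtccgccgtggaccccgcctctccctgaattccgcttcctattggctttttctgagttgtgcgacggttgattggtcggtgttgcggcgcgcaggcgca
*Acaa1a* (chr9:119341044-119341293, plus strand): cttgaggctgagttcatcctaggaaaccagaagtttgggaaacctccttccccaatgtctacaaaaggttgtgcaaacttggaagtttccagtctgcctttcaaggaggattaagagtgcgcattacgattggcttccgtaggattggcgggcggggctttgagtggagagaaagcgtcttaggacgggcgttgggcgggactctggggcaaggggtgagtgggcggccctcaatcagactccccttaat
*Acadm* (chr3:153944644-153944893, minus strand): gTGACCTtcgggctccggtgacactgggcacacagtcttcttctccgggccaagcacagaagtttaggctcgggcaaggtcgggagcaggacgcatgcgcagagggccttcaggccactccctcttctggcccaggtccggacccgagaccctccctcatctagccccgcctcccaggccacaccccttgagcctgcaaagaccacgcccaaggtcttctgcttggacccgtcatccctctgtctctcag
*Phyh* (chr2:4918746-4918995, plus strand): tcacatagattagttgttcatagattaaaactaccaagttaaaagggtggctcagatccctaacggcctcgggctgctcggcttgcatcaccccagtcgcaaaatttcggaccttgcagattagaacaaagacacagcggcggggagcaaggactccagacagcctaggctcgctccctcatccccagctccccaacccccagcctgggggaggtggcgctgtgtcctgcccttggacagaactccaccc
Of these, *Acadm* held the half-site, in its reverse complement, at the far end of the stretch. *Phyh* held 1 past its start. A window from 250 bases before to 50 after the start was found for 32 of 38 members, of which 7 held AGGTCA (21.9%), beside 18.1% of 27025 genes. These were *Acadm*, *Acadvl*, and *Echs1* in mitochondria and *Phyh*, *Scp2*, *Acot3*, and *Acot4* in peroxisomes. They included genes of either sign of change. A pair of AGGTCA half-sites in the same direction with 1 base between them, on either strand, was in no member and in 0.0481% of all genes. A match is a description of these letters and not a binding site.

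The steps around β-oxidation were read from lists of other genes. For activation of fatty acids and their passage into mitochondria by carnitine, 15 of 18 genes had a lower and 3 a higher mean in *ob/ob* mice, with a median change of -0.84. Only *Acacb*, the acetyl-CoA carboxylase that makes the inhibitor of carnitine transfer, passed an unadjusted p of 0.05 (-3.564 ± 1.205, limma), beside 1.68% of all genes for lower means. *Cpt1b*, the carnitine palmitoyltransferase of muscle and brown fat, and *Cpt2* had changes of -2.97 ± 1.74 and -1.65 ± 1.12. Peroxisome biogenesis genes (15 tested) had a median of -0.05, other peroxisomal enzymes and transporters (16 tested) 0.01, and genes of odd-chain and branched-chain acyl-CoA breakdown (11 tested) 0.16, with none past an unadjusted p of 0.05. Among 10 regulators, 7 had a lower mean, and the coactivators *Ppargc1a* (-2.91 ± 0.87) and *Ppargc1b* (-3.75 ± 0.70) passed an unadjusted p of 0.05 (limma), each without overlap between groups (4.19% of all genes for lower means). For *Ppargc1a* that rested on a small margin, with control 3 at 7.59 and *ob/ob* 3 at 7.58. *Ppara*, the receptor that drives many oxidation genes, had a change of -0.57 ± 0.48. At an adjusted p of 0.05, none of the listed genes passed.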

How the data were processed

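The 6 iBAT samples, 3 control and 3 *ob/ob*, were each hybridized to 1 Agilent array. Groups and replicate numbers came from the sample titles. The 38 genes and the lists of pathway and marker genes were chosen from general knowledge with earlier results of these data known.

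The authors deposited, per the file headers, spot intensity values from Agilent Feature Extraction (version 11.0.1.1), corrected for background within each array and not normalized between arrays. A second deposited file holds log2 values of these arrays after quantile normalization by the authors, and these correlated at 0.987 to 0.998 with the scanner values. Arrays carry no counts, so their number limits the precision, and no counting interval is given.

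Spots with an outlier flag were left out, replicate spots were averaged as log2 values, and 39325 of 39429 probes were kept and quantile normalized. RefSeq accessions marked 28684 probes, and 27234 of them received a symbol through the RefSeq annotation of GRCm38.p6, which also gave the promoter sequences. A probe was tested where at least 50% of its spots lay well above background on at least 3 of 6 arrays, which 35448 probes did. The test was limma 3.58.1 (R 4.3.3) with Benjamini-Hochberg adjustment over all probes. A gene was read from its brightest probe and counted as tested where that probe was tested. The code was tested on simulated data. Permutation tests, tables, and plots used Python 3.11.15 with scipy 1.17.1, pandas 2.3.3, numpy 2.4.6, and matplotlib 3.10.9.

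Values on all arrays are given for members without overlap between groups, for the 3 largest rises and falls per organelle, and for 10 defining enzymes. Scanner files show that control 1, control 3, and *ob/ob* 1 share a scan and that the other arrays have 1 each. The alternatives were scaling to the 75th percentile, normexp background correction (offset 50), the authors' values, other detection filters, limma with a trend and robust estimation, the methods' t-test, array quality weights, the replicate number or the scan as a block, the mean of a gene's probes, 1 probe per gene, another assignment of members found in several places, and leaving out arrays. The scale relative to the members' median and the subunit pairs were added after the data were examined. Protein sequences were not used here.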

Additional observations from a re-analysis of the deposited data

How the results depend on the processing

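Over the alternatives, the changes of *Etfb* (-3.90 to -1.57), *Acadvl* (-3.67 to -0.82), *Acaa1a* (-2.89 to -0.81), and *Phyh* (0.55 to 2.36) kept their sign, as did the difference of *Etfb* minus *Etfa*. That pair was picked after its values were seen and the alternatives use the same arrays, so its sign there is no check of the pick. Members past an adjusted p of 0.05 numbered 36 with array quality weights, whose estimation did not converge and which called 93.6% of all probes, 24 without control 3 and *ob/ob* 3, and 0 otherwise. Members past an unadjusted p numbered 27 lower and 9 higher with the weights, 21 and 3 without both arrays, 1 lower with the methods' t-test, and 0 to 5 lower (5 without control 3, 2 without *ob/ob* 3) and 0 to 1 higher with single arrays left out. Members without overlap numbered 25 lower and 3 higher without both arrays, and 1 to 8 lower and 0 to 4 higher with single arrays left out. On the relative scale they numbered 30 and 9 to 15. The mitochondrial median was -1.05 without both arrays, the difference from the peroxisomal median was -0.17 with the weights, -0.18 with the scan as a block and within the scan, -0.26 without both arrays, and -0.12 to 0.70 with single arrays left out. The median of all genes was -0.30 with the 75th percentile and 0.062 without both arrays. The cause of these differences was not tested.

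Of the 37 members, the sign turned for 13 without both arrays, 9 with the weights, 7 with the scan as a block, 3 with the 75th percentile, 1 with normexp, and 4 to 10 with single arrays left out. Of the 20 genes given with single-array values, it turned for *Hadhb* with the 75th percentile (-0.055), for *Decr1* with the mean of its probes (0.052), and, with the scan as a block and within the scan, for *Hadhb* (-0.60), *Acot2* (-0.14), and *Acot3* (0.64). They turned with the weights for *Acadl* (-0.80), *Hadhb* (-1.44), *Etfdh* (-0.81), *Hsd17b4* (-0.89), and *Acot2* (-0.053), and without both arrays for *Acadm* (-0.019), *Acadl* (-1.18), *Hadhb* (-2.13), *Etfdh* (-1.39), *Hsd17b4* (-1.48), and *Acot2* (-0.21). With single arrays left out, *Decr2* ranged from -0.0081 to 1.40, *Acadl* from -0.64 to 0.95, *Hadhb* from -1.04 to 1.02, *Etfdh* from -0.45 to 1.27, *Hsd17b4* from -0.46 to 1.35, *Acot2* from -0.12 to 0.58, and *Acot3* from -1.45 to 0.0048. *Hadhb* minus *Hadha* ranged from -0.70 to 1.06 in the same way and was -1.61 without both arrays and -0.58 within the scan. The deviations of same-numbered arrays from their group means correlated at -0.78, -0.66, and -0.85. Since control 3 and *ob/ob* 3 stood apart in opposite ways, these values cannot show whether the replicate numbers pair the samples. With the replicate number as a block, 0 members passed an adjusted p and the lowest adjusted p over all probes was 0.99999.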

Other observations

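Of the 6 members with more than 1 probe, both probes had the same sign for *Scp2* (0.45 and 0.29), *Acot3* (-0.90 and -0.53), *Etfa* (1.09 and 1.43), and *Acox3* (-0.41 and -0.78), and opposite signs for *Acot8* (-0.18 and 0.08) and *Decr1*. The brighter probe of *Decr1* had a change of -1.09 and the dimmer one 1.19. The dimmer probe read 5.840, 5.049, and 2.996 in controls and 5.320, 4.577, and 7.557 in *ob/ob* mice, so that both probes were lowest on control 3 among the controls and highest on *ob/ob* 3 among the *ob/ob* arrays. The probes of *Acox3* differed in their order of arrays, the brighter one being lowest on *ob/ob* 3 (6.90) and the dimmer one highest there (7.16).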
